A study of Mus musculus with 8 samples.

Results

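The genes described here move salt and water across the surfaces of the lung. They comprised 4 water channels (Aqp1, Aqp3, Aqp4 and Aqp5), the 3 subunits of the epithelial sodium channel (Scnn1a, Scnn1b and Scnn1g), the chloride channel Cftr and the sodium pump subunit Atp1b1. A gene was included by its symbol in the authors' annotated matrix, which held 20920 symbols. There 8 of the 9 genes had a probe, 11 probes in all, and Aqp5 had none. Matching RefSeq accessions in the scanner output added 1 probe for Aqp5 and a second one for Scnn1a, so that 13 probes were followed.

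Sodium enters the epithelial cell through the sodium channel in its apical membrane and is pumped out on the basolateral side by the Na+,K+-ATPase, and water follows the salt, in part through aquaporins. Chloride is secreted or absorbed through Cftr, the channel that is defective in cystic fibrosis. In alveoli this transport keeps the airspace almost dry, and in airways it sets the depth of the liquid on which the cilia beat.

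Whole lungs of untreated male C57BL/6 mice were compared, 4 wild-type and 4 Scgb3a2-transgenic, which the labels give as 8 to 10 weeks old and the methods as approximately 8 weeks old. The transgene carried mouse Scgb3a2 cDNA behind the human SP-C promoter, which is active in alveolar type II cells, injected into C57BL/6NCr eggs according to the methods, and the study used 1 line of these mice. Scgb3a2 encodes a secretoglobin that airway epithelial cells release. RNA of each mouse was labeled with Cy5 and hybridized to an Agilent whole mouse genome array beside a Cy3-labeled pool, which held equal amounts of RNA of each sample according to the methods.

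All values below are log2 ratios of the mouse over that pool, so that a difference of 1 between lungs means a 2-fold difference. Dyes were not swapped on any array. A ratio above 0 on all 8 arrays may therefore include a dye effect of the probe, and values were compared only between arrays of the same probe. No spot was saturated, and between 32271 and 34720 of 41174 probes stood well above background in the sample channel. A slide carried 1 array of either genotype, and the 4 slides fell on 2 scan days. In whole lung, fewer cells of a type and less RNA per cell cannot be told apart.

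The transgene product was checked first. The Scgb3a2 probe gave 0.0061, -0.39, 0.58 and -0.56 in wild-type replicates 1 to 4, and 1.26, 0.47, 0.70 and 0.74 in transgenic replicates 1 to 4. Wild-type replicate 3 lay above transgenic replicate 2, so that the groups overlapped. The mean was higher in transgenic lungs by 0.88 (SE 0.24), with an unadjusted limma p of 0.00330, an adjusted one of 1.00 and an exact two-sided permutation p of 0.0571. The smallest p that 4 against 4 mice allow is 0.0286.

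No difference between genotypes in a fluid transport gene passed the test against the spread between mice. Of 11 probes tested, 0 passed an adjusted p of 0.05 by limma, 0 passed an unadjusted p of 0.05, and 0 had groups that did not overlap. Over all 32643 probes tested, 0 passed the adjusted threshold (0%), 683 had an unadjusted p under 0.05 (2.09%), and 644 had groups that did not overlap (1.97%). The methods' t-test gave 865 probes with an unadjusted p under 0.05 and also 0 after adjustment. By the brightest probe of each gene, 5 of 8 genes had a lower mean in transgenic lungs and 3 a higher mean, with a median difference of -0.13, and 49.6% of all probes tested were lower, with a median of 0.00099. Under median-centring of the arrays 7 of the 8 were lower with a median of -0.22, where the median of all probes was -0.048, and in the sample channel alone 5 of 8 with a median of -0.023. The lowest adjusted p of any fluid transport probe was 0.986, under all alternatives tried.

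**Figure D1:**
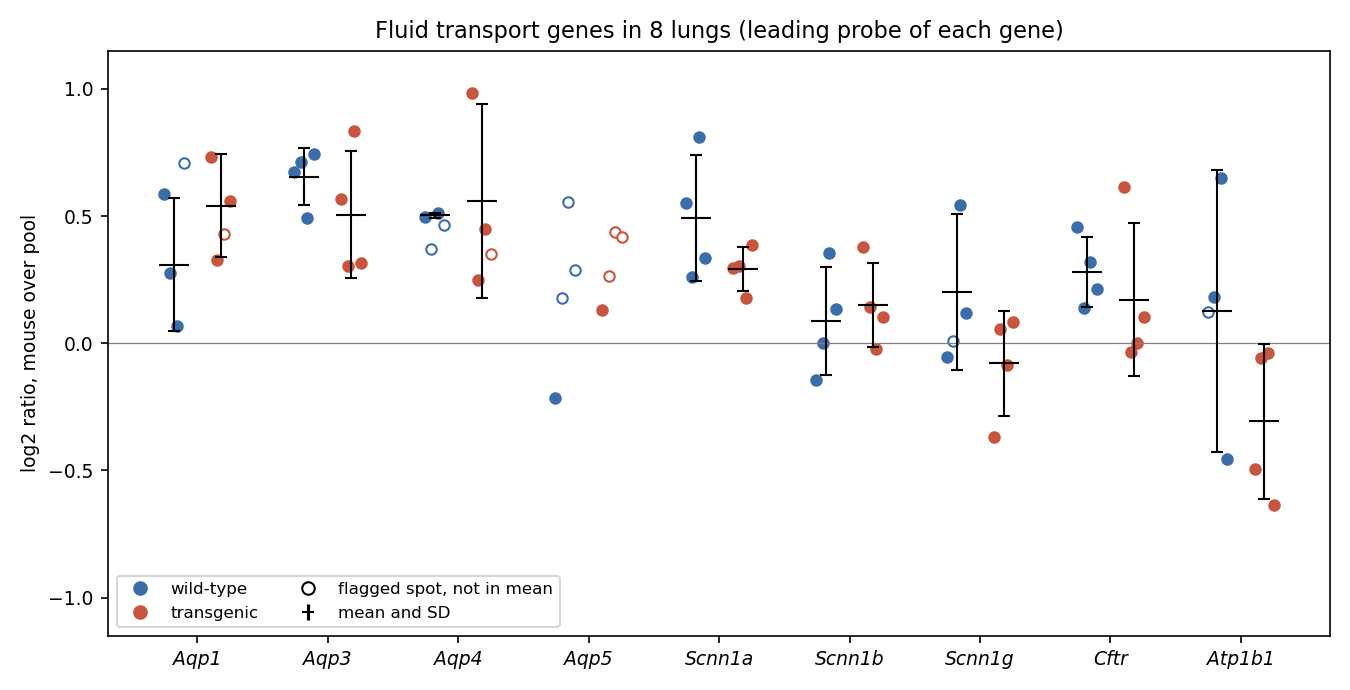
Log2 ratio of each lung over the pool for the leading probe of the 9 genes, wild-type in blue and transgenic in red, with mean and SD. Open points are spots with an outlier flag, which were left out of means. With the open points counted the genotypes overlap for all 9 genes, and the widest spread is that of Atp1b1, from -0.64 to 0.65.

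Among the water channels, Aqp1 is the one of capillary endothelium. Its probe (A_51_P125205) gave 0.59, 0.27 and 0.066 in wild-type replicates 1 to 3, and 0.73, 0.33 and 0.56 in transgenic replicates 1, 2 and 4. The spots of wild-type replicate 4 and transgenic replicate 3 carried an outlier flag. The highest value was transgenic and the lowest wild-type, with the other values interleaved. Means were 0.31 ± 0.26 in wild-type (SD, n = 3) and 0.54 ± 0.20 in transgenic lungs (SD, n = 3). The difference of 0.23 (SE 0.17, 95% interval -0.14 to 0.61) had an unadjusted limma p of 0.197 and corresponds to a ratio of 1.17 (0.905 to 1.52). With the 2 flagged spots kept, at 0.71 in wild-type replicate 4 and 0.43 in transgenic replicate 3, the difference was 0.10. Leaving out single mice gave 0.11 (without wild-type replicate 3) to 0.37 (without wild-type replicate 1), and 0.13 without transgenic replicate 1. With the slide as a block the unflagged values gave 0.23 with an unadjusted p of 0.111. Within slides 1, 2 and 3 the transgenic array was higher by 0.49, 0.15 and 0.053, and on slide 4 with flagged spots kept the difference was -0.28.

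Aqp3, an aquaporin that also passes glycerol and marks basal cells of the airway, was above the pool on all 8 arrays. Its probe (A_51_P245090) gave 0.67, 0.71, 0.49 and 0.74 in wild-type replicates 1 to 4 and 0.57, 0.31, 0.83 and 0.31 in transgenic replicates 1 to 4. Transgenic replicates 2 and 4 were the lowest of the 8 lungs and transgenic replicate 3 was the highest. The difference of means was -0.15 (SE 0.13, 95% interval -0.44 to 0.14), with an unadjusted p of 0.276 by limma and of 0.286 by exact permutation. Means were 0.66 ± 0.11 in wild-type and 0.50 ± 0.25 in transgenic lungs (SD, n = 4 each). Within slides 1 to 4 the transgenic array differed by -0.18, -0.10, -0.41 and 0.089, lower on 3 of 4. The slide as a block left the difference at -0.15 with an unadjusted p of 0.194. Leaving out single mice gave -0.26 (unadjusted p 0.0556, without transgenic replicate 3) to -0.084 (without transgenic replicate 2), and -0.087 without transgenic replicate 4. In the sample channel alone the sign turned, to 0.041. The 5 basal cell markers Krt5, Krt14, Krt15, Trp63 and Ngfr had a median difference of -0.081, with 4 lower and 1 higher (3 and 2 with normexp fitted on all spots), and a list mean of 0.043 to 0.46 in wild-type and -0.12 to 0.22 in transgenic lungs. Among them the Trp63 probe was dim, with a mean log2 brightness of 6.17. Over the 8 lungs Aqp3 and the mean of these markers had a Pearson r of 0.62 (exact permutation p 0.0969, adjusted over 77 relations of genes and marker lists 0.466) and a Spearman rho of 0.67 (exact permutation p 0.0831, adjusted 0.842), with r at 0.54 without the 2 farthest lungs and at 0.97 and 0.73 within the scan days (4 lungs each), and at 0.11 with processed signals.

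Aqp4, a water channel of the basolateral membrane of airway and alveolar epithelium, had 3 probes. The brightest (A_52_P625527) gave 0.50 and 0.51 in wild-type replicates 1 and 3 and 0.98, 0.25 and 0.45 in transgenic replicates 1, 2 and 3, with the other 3 spots flagged. The second (A_51_P419319) gave -0.32, -0.65, -0.37 and -0.65 in wild-type replicates 1 to 4 and 0.0034, -0.84, -0.96 and -0.59 in transgenic replicates 1 to 4. The third (A_52_P25710) gave -0.25, -0.18, 0.14 and -0.11 in wild-type replicates 1 to 4 and 0.26, -0.53, -0.23 and -0.19 in transgenic replicates 1 to 4. On all 3 probes transgenic replicate 1 was the highest of the lungs measured, and transgenic lungs had the wider range. The SD of the second probe was 0.43 in transgenic and 0.18 in wild-type lungs (n = 4 each), and that of the third 0.33 and 0.17.

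The differences between genotypes for Aqp4 were small and did not share a sign. They were 0.057 (SE 0.21), -0.098 (SE 0.19) and -0.075 (SE 0.16) for the 3 probes in that order, with unadjusted limma p of 0.797, 0.613 and 0.647. The 95% interval of the brightest probe ran from -0.43 to 0.55. Without transgenic replicate 1 all 3 probes were lower in transgenic lungs, at -0.16, -0.30 and -0.22, and the second had an unadjusted p of 0.0443. Slide 2, which held wild-type replicate 1 and transgenic replicate 1, gave differences of 0.49, 0.33 and 0.51. On slides 1, 3 and 4 the second probe differed by -0.23, -0.19 and -0.31, and the third by -0.33, -0.35 and -0.13. In the fit with slide as a block A_51_P419319 gave -0.098 and A_52_P25710 -0.075 again, with unadjusted p of 0.443 and 0.623. The brightest probe had a pair of unflagged values on slide 2 alone, and on the first scan day transgenic replicate 1 alone stood against wild-type replicates 1 and 3, a difference of 0.48 that carries no replicate check. No wild-type array of the second scan day had an unflagged value. With flagged spots kept the brightest probe differed by -0.16, 0.49, -0.12 and -0.018 within slides 1 to 4, lower on 3 of 4. Its difference of means was then 0.047.

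**Figure D2:**
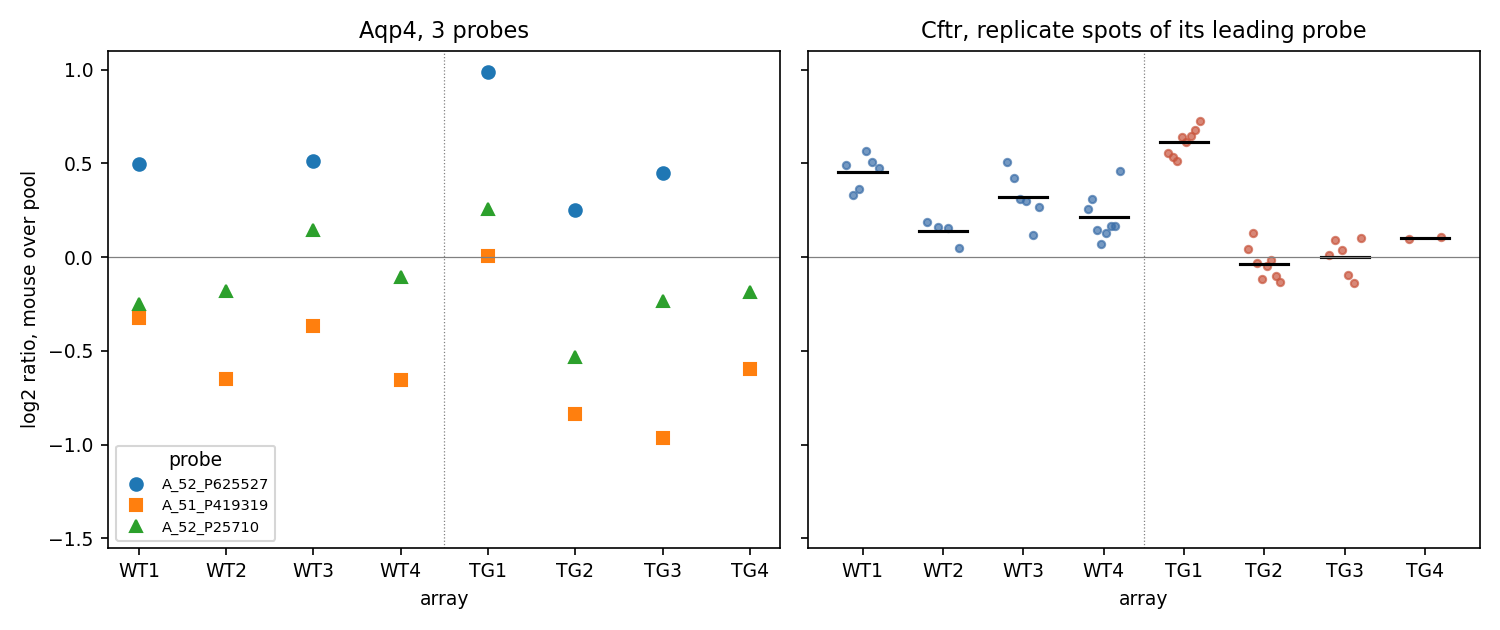
Left, log2 ratio over the pool of the 3 Aqp4 probes by array, flagged spots left out. Right, each unflagged spot of the leading Cftr probe by array, with the line at the array's mean. Transgenic replicate 1 (TG1) has the highest value for every Aqp4 probe and for Cftr, 0.61.

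Transgenic replicate 1 also stood apart in marker genes of type I cells, the flat cells that cover most of the alveolus and carry Aqp5 in their apical membrane. The mean of the 4 type I markers with a value on all arrays (Ager, Clic5, Emp2 and Hopx) was -0.58 in this lung and between 0.13 and 0.52 in the other 7, with Ager at -1.16 and Clic5 at -0.93. The same lung had the highest mean of 5 ciliated cell markers, 0.99 against 0.25 to 0.65 in the others. It also had the highest mean of 2 club cell markers, 1.86 against 0.11 to 1.66, and the lowest of 3 atrial muscle markers, -0.45 against -0.091 to 1.03. The club cell rank came from Scgb3a1, at 1.95 in this lung. For Cyp2f2 wild-type replicate 3 was higher (1.94 against 1.76), as it was for Cldn10 (0.96 against 0.65), a marker outside that mean. Scgb1a1 had no unflagged value in transgenic replicate 1. Over the type I list 5 of 7 markers had a lower mean in transgenic lungs and 2 a higher mean, with a median difference of -0.15. Without transgenic replicate 1 Ager, Clic5 and Hopx turn higher in transgenic lungs, and the median difference turns positive. The part of these shifts in the Aqp4 values was not tested.

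Aqp5 itself had 1 probe (A_51_P207601), which was well above background on 8 of 8 arrays and flagged on 6 of them. Unflagged values of Aqp5 were -0.21 in wild-type replicate 1 and 0.13 in transgenic replicate 1, too few for a test. With flagged spots kept, a setting chosen after seeing the data, wild-type replicates 1 to 4 gave -0.21, 0.18, 0.56 and 0.29, and transgenic replicates 1 to 4 gave 0.13, 0.26, 0.44 and 0.42. The 4 transgenic values lay within the wild-type range. The difference was 0.11 (SE 0.15, 95% interval -0.23 to 0.45), with an unadjusted limma p of 0.491 where 2.05% of all probes so treated passed 0.05. Without wild-type replicate 1 it was -0.029. Within slides 1 to 4 it was -0.14, 0.34, 0.086 and 0.15, and the slide as a block gave 0.11 with an unadjusted p of 0.330.

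The sodium channel needs all of its alpha, beta and gamma subunits for full activity. Scnn1a encodes the alpha subunit, which forms part of the conducting pore. Its leading probe (A_51_P213691) gave 0.55, 0.26, 0.81 and 0.33 in wild-type replicates 1 to 4 and 0.30, 0.30, 0.18 and 0.39 in transgenic replicates 1 to 4. Wild-type replicates 1 and 3 lay above all transgenic lungs, and wild-type replicates 2 and 4 within their range. Means were 0.49 ± 0.25 in wild-type and 0.29 ± 0.085 in transgenic lungs (SD, n = 4 each). The difference of -0.20 (SE 0.13, 95% interval -0.48 to 0.082) had an unadjusted limma p of 0.147 and an exact permutation p of 0.229. It was -0.43, -0.26, 0.040 and -0.16 within slides 1 to 4, and -0.20 with an unadjusted p of 0.0917 with the slide as a block. On the first scan day it was -0.34 and on the second -0.058, and without wild-type replicate 3 it was -0.092.

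The second Scnn1a probe (A_52_P139395) was flagged on 5 of 8 arrays and was read with flagged spots kept. Wild-type replicates 1 to 4 gave -0.43, -0.24, -0.40 and -0.60, and transgenic replicates 1 to 4 gave -1.17, -0.60, -0.55 and -0.77. Transgenic replicates 2 and 3 lay just above wild-type replicate 4, and otherwise the genotypes were apart. The difference was -0.35 (SE 0.14, 95% interval -0.67 to -0.037), the one interval among the 13 probes that left out 0. Its unadjusted limma p was 0.0320, its adjusted p 1.00 and its exact permutation p 0.0857. Of the 2 probes read with flagged spots kept, 1 passed an unadjusted p of 0.05 and 0 had groups that did not overlap, against 2.05% and 1.45% of all probes in that setting. The unadjusted p was over 0.05 under 11 of 21 alternatives, among them the sample channel alone (0.235), processed signals (0.113), array weights (0.0901) and the methods' t-test (0.0676), and a slide block gave 0.0250. The differences within slides 1 to 4 were -0.37, -0.74, -0.35 and 0.052. Both Scnn1a probes were lower in transgenic lungs under every alternative tried, from -0.28 to -0.092 for the leading probe and from -0.43 to -0.22 for the second.

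Scnn1b encodes the beta subunit. Its probe (A_51_P412348) gave -0.15, -0.00063, 0.35 and 0.14 in wild-type replicates 1 to 4 and 0.38, 0.14, -0.021 and 0.11 in transgenic replicates 1 to 4. Wild-type replicate 1 was the lowest and transgenic replicate 1 the highest, and the other 6 lungs lay mixed between them. The difference was 0.064 (SE 0.13, 95% interval -0.22 to 0.35), with an unadjusted limma p of 0.630. Within slides 1 to 4 it was -0.25, 0.52, 0.14 and -0.16, 2 in each direction, and the slide as a block gave 0.064 with an unadjusted p of 0.645. The sign turned without wild-type replicate 1 (-0.013) and without transgenic replicate 1 (-0.011), and also in the sample channel alone (-0.026) and under median-centring (-0.018).

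Scnn1g, the gamma subunit, which proteases cleave to open the channel, had the lower mean in transgenic lungs. Its probe (A_51_P245558) gave -0.056, 0.54 and 0.12 in wild-type replicates 1, 3 and 4 and -0.37, 0.054, -0.086 and 0.085 in transgenic replicates 1 to 4. The flagged spot of wild-type replicate 2 read 0.011. Wild-type replicates 3 and 4 were above all transgenic lungs, and transgenic replicate 1 was the lowest of all. Means were 0.20 ± 0.31 in wild-type (SD, n = 3) and -0.079 ± 0.21 in transgenic lungs (SD, n = 4). The difference of -0.28 (SE 0.17, 95% interval -0.65 to 0.086) had an unadjusted limma p of 0.119 and an exact permutation p of 0.229.

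Scnn1g was lower in the transgenic array on each of the 3 slides with unflagged values, at -0.46 on slide 1, -0.31 on slide 2 and -0.21 on slide 4. Blocking on the slide gave -0.32 (SE 0.11) with an unadjusted p of 0.0229 (adjusted 1.00), where 3.7% of all probes in that fit passed an unadjusted 0.05. The flagged spot of slide 3 gave a difference of 0.044. Leaving out single mice moved the unblocked difference from -0.11 (unadjusted p 0.494, without wild-type replicate 3) to -0.41 (unadjusted p 0.0432, without wild-type replicate 1), and without transgenic replicate 1 it was -0.18. In the reference annotation (GRCm38.p6) Scnn1g and Scnn1b are adjacent protein-coding genes. Across the 7 lungs with both values their Pearson r was 0.19 (exact permutation p 0.731, adjusted over 19 pairs 0.872) and Spearman's rho 0.11 (exact permutation p 0.840, adjusted 0.997), with r at 0.97 without the 2 lungs farthest from the median of Scnn1b and at 0.13 and 0.94 within the scan days (4 and 3 lungs).

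**Figure D3:**
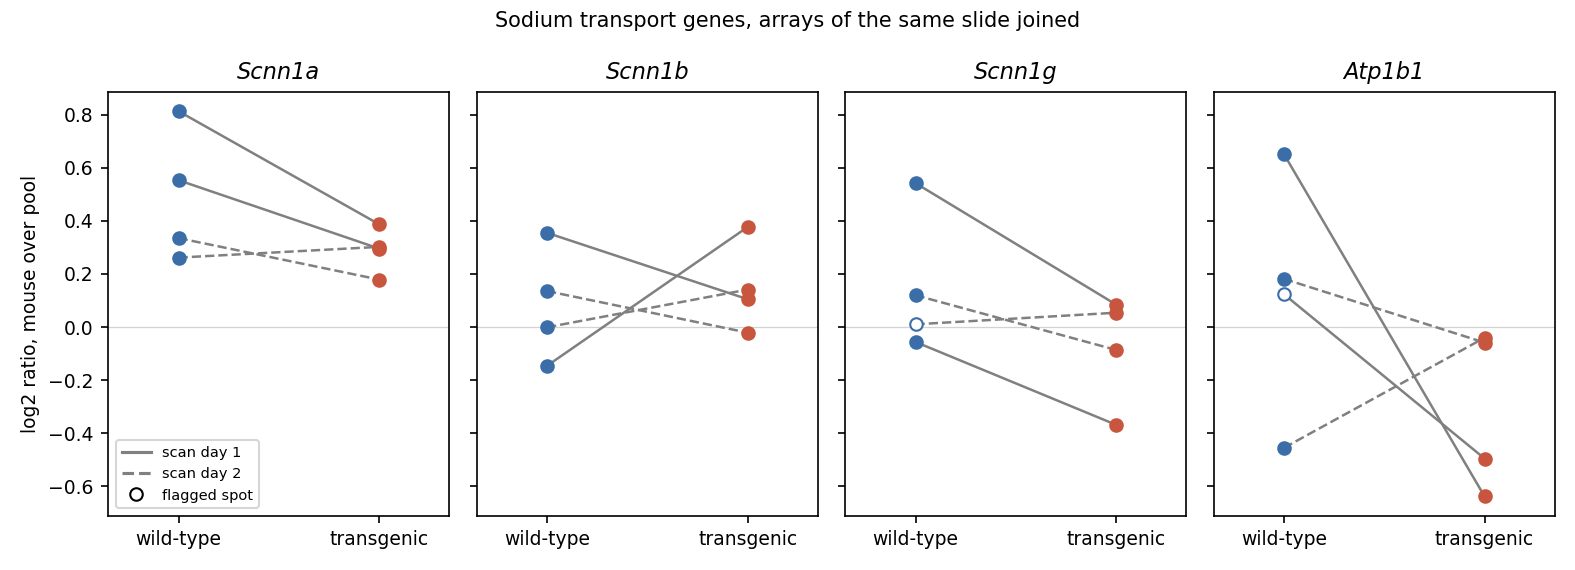
Log2 ratio over the pool of the 3 sodium channel subunits and Atp1b1, with lines joining the wild-type and transgenic array of a slide, solid for the first and dashed for the second scan day. Open points are flagged spots. Lines of Scnn1a and Scnn1g fall on 3 of 4 slides, those of Scnn1b on 2 of 4.

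Cftr had a leading probe (A_51_P305896) printed as 10 spots on every array, which shows the error of a single spot directly. Means of the unflagged spots were 0.46, 0.14, 0.32 and 0.21 in wild-type replicates 1 to 4 and 0.61, -0.036, 0.0017 and 0.10 in transgenic replicates 1 to 4. Transgenic replicate 1 was the highest lung, and the other 3 transgenic lungs were below all wild-type lungs. With all 10 spots transgenic replicate 4 read 0.16, above wild-type replicate 2 at 0.13. Of 80 spots 48 were unflagged, 2 on transgenic replicate 4 and 4 to 8 on the other arrays. The SD between unflagged spots of an array had a median of 0.089, and 0.088 with all 10 spots, against an SD between lungs of 0.14 in wild-type and 0.30 in transgenic mice (n = 4 each).

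The difference between genotypes for Cftr was -0.11 (SE 0.15, 95% interval -0.44 to 0.21), with an unadjusted limma p of 0.466 and an exact permutation p of 0.543. It was -0.22, 0.16, -0.17 and -0.21 within slides 1 to 4, with slide 2 again the one that held transgenic replicate 1, and -0.11 with an unadjusted p of 0.309 with the slide as a block. Without transgenic replicate 1 it was -0.26 with an unadjusted p of 0.0371, and without transgenic replicate 2 it was -0.043 with an unadjusted p of 0.794. It was -0.054 without wild-type replicate 1 and -0.055 without transgenic replicate 3, -0.049 with normexp fitted on all spots and -0.021 in the sample channel alone. The second Cftr probe (A_52_P452881) was dim, with a sample signal of 72 to 104.5 over a local background of 52.5 to 72, and well above background in 3 wild-type and 2 transgenic lungs. It gave -0.24, 0.043, 0.0059 and -0.055 in wild-type replicates 1 to 4 and -0.33, -0.20, -0.096 and -0.046 in transgenic replicates 1 to 4, a difference of -0.11 (SE 0.11) with an unadjusted p of 0.349. For this probe leaving out single mice gave differences of -0.17 (without wild-type replicate 1) to -0.051 (without transgenic replicate 1), with -0.070 without wild-type replicate 2, processed signals gave -0.36 and normexp fitted on all spots -0.033. Its differences within slides 1 to 4 were -0.052, -0.086, -0.24 and -0.041, lower on 4 of 4, and the slide as a block gave -0.11 with an unadjusted p of 0.287.

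Cftr was set against 11 lists of marker genes of other cell types, and 3 had an unadjusted exact permutation p under 0.05. Against club cells, the secretory cells of the small airways, read by 2 of 4 markers, Cyp2f2 and Scgb3a1, its r was 0.82 (exact permutation p 0.0132, adjusted 0.313) and its rho 0.88 (exact permutation p 0.00724, adjusted 0.186), with r at 0.66 without the 2 farthest lungs and at 0.83 and 0.68 within the scan days, and at 0.25 in the sample channel alone. Against 5 ciliated cell markers r was 0.76 (exact permutation p 0.0264, adjusted 0.339) and rho 0.64 (exact permutation p 0.0962, adjusted 0.842), with r at 0.22 without the 2 farthest lungs and at 0.79 and -0.17 within the scan days. Against 4 type I markers r was -0.71 (exact permutation p 0.0422, adjusted 0.389) and rho -0.60 (exact permutation p 0.132, adjusted 0.842), with r at -0.24 without the 2 farthest lungs and at -0.91 and -0.21 within the scan days. The last 2 rest on the farthest lungs, and none of the 3 passed after adjustment.

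**Figure D4:**
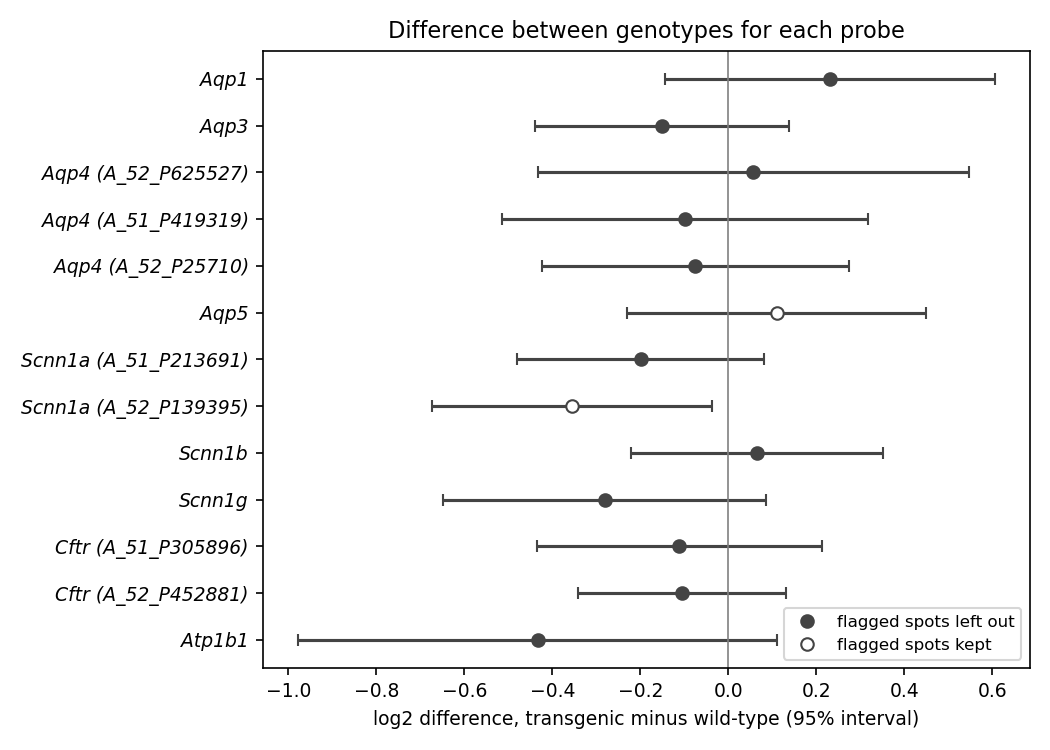
Difference between genotypes in log2 ratio (points, transgenic minus wild-type) with 95% intervals for the 13 probes. Filled points leave flagged spots out, and the open points of Aqp5 and the second Scnn1a probe keep them. The interval of the second Scnn1a probe alone lies below 0, and that of Atp1b1 is the widest, from -0.98 to 0.11.

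Atp1b1 encodes the beta1 subunit, which the sodium pump needs to reach the cell surface. Its probe (A_51_P151484) gave 0.18, 0.65 and -0.45 in wild-type replicates 2, 3 and 4, and -0.49, -0.058, -0.040 and -0.64 in transgenic replicates 1 to 4. The flagged spot of wild-type replicate 1 read 0.12. Wild-type replicates 2 and 3 were above all transgenic lungs, and wild-type replicate 4 was near transgenic replicates 1 and 4. The SD between lungs, pooled over genotypes, was 0.45 against a median of 0.18 over all probes tested, at the 97.9th percentile.

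The difference in Atp1b1 was -0.43 (SE 0.24, 95% interval -0.98 to 0.11), a ratio of 0.740 (0.508 to 1.08), with an unadjusted limma p of 0.106 and an exact permutation p of 0.257. Leaving out single mice moved it from -0.17 (unadjusted p 0.468, without wild-type replicate 3) to -0.72 (unadjusted p 0.00775, adjusted 1.00, without wild-type replicate 4), and array weights gave -0.19 (unadjusted p 0.396). Within slides 1, 3 and 4 it was -1.29, -0.24 and 0.41, and -0.62 on slide 2 with the flagged spot kept. Among arrays of the first scan day it was -1.22, with wild-type replicate 3 as the only wild-type value, or -0.95 with the flagged spot kept, and among those of the second 0.087. Blocking on the slide gave -0.37 with an unadjusted p of 0.213, and in the sample channel alone -0.62 with an unadjusted p of 0.0474.

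Atp1b1 was set against marker genes of other cell types. A list was read in each lung as the mean of its markers with a value on all 8 arrays, so that every lung averaged the same genes. For type II cells, the surfactant-making cells, these were 4 of 9 markers (Abca3, Etv5, Sftpa1 and Sftpd), with means of 0.43, 0.43, 1.04 and -0.0019 in wild-type replicates 1 to 4 and -0.053, 0.23, 0.25 and 0.016 in transgenic replicates 1 to 4. Over the 7 lungs with an Atp1b1 value Pearson's r was 0.96 (exact permutation p 0.00179, adjusted over 77 relations 0.0688) and Spearman's rho 0.89 (exact permutation p 0.0123, adjusted 0.237). It was 0.96 without the 2 lungs farthest from the median of the markers, 0.99 and 0.99 within the scan days (3 and 4 lungs), 0.94 within genotypes and 0.97 in the sample channel alone. With flagged spots kept all 9 markers had a value in all 8 lungs, and r was 0.92.

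Markers of endothelium ran the other way. The Pecam1 probe among them was dim, with a mean log2 brightness of 6.47 against 7.60 for Tek, the next lowest. It was still well above background on every array. The mean of Pecam1, Cldn5, Emcn, Tek, Kdr and Tie1, 6 of 7 markers, was 0.43, 0.21, -0.18 and 0.45 in wild-type replicates 1 to 4 and 0.42, 0.36, 0.23 and 0.56 in transgenic replicates 1 to 4. Against Atp1b1 Pearson's r was -0.96 (exact permutation p 0.000397, adjusted 0.0306) and Spearman's rho -0.96 (exact permutation p 0.00278, adjusted 0.186). It was -0.90 without the 2 farthest lungs, -0.996 and -0.90 within the scan days, and -0.52 in the sample channel alone. Atrial muscle, read by Myl4, Nppa and Sln, gave an r of 0.85 with Atp1b1 (exact permutation p 0.0163, adjusted 0.313) and a rho of 0.93 (exact permutation p 0.00675, adjusted 0.186). It was 0.79 without the 2 farthest lungs, 0.94 and 0.46 within the scan days and 0.70 in the sample channel alone. In all, 7 genes with 6 or more values were set against 11 lists, 77 relations, a comparison added after the values had been seen. By Pearson's r 9 had an unadjusted exact p under 0.05 and 1 an adjusted one, that of Atp1b1 and endothelium, and by Spearman's rho 5 and 0.

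**Figure D5:**
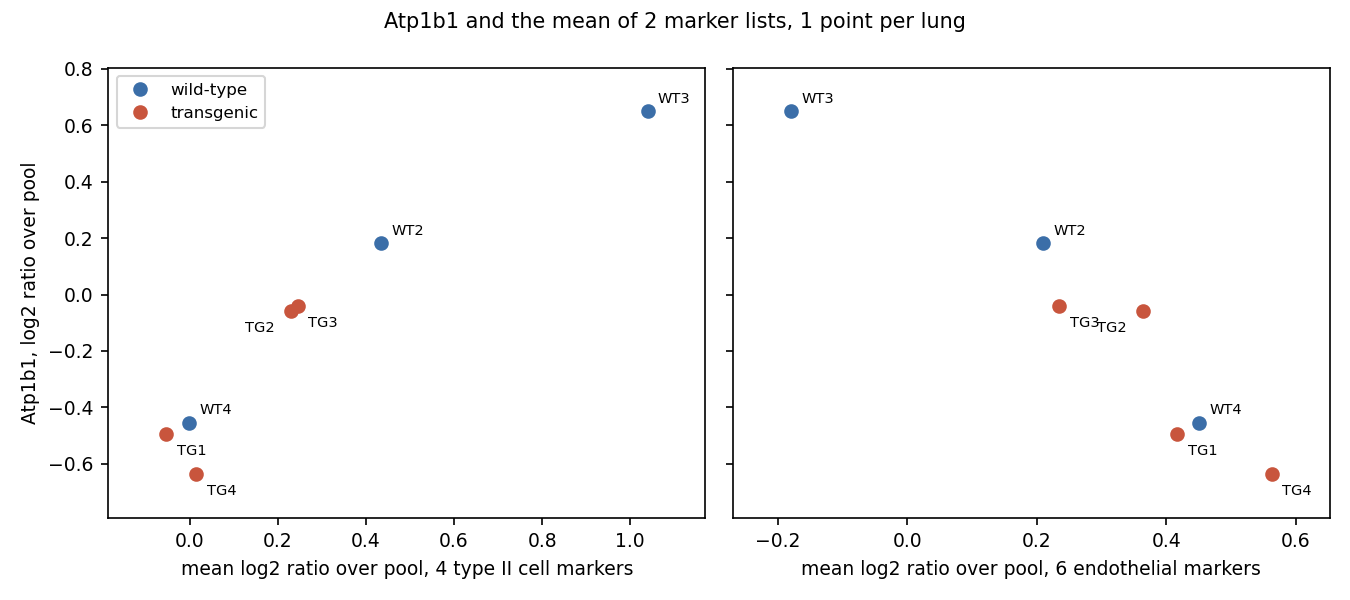
Log2 ratio of Atp1b1 over the pool (vertical) against the mean log2 ratio of 4 type II cell markers (left) and of 6 endothelial markers (right), 1 point for each of 7 lungs, wild-type in blue and transgenic in red. Atp1b1 is higher in lungs with higher type II markers (r = 0.96) and lower in lungs with higher endothelial markers (r = -0.96), with wild-type replicate 3 (WT3) at the end of both plots.

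Means of these markers also differed between genotypes, though 0 of them passed the adjusted threshold. All 9 type II markers had a lower mean in transgenic lungs, with a median difference of -0.50. Of these, 2 passed an unadjusted limma p of 0.05, Sftpa1 at -0.75 and Sftpd at -0.47, where 2.09% of all probes did. Under 4 of 6 other scalings 8 of 9 were lower. Wild-type replicate 3 was the highest lung for Sftpa1 (1.66), Sftpd (0.74), Sftpb (1.31), Etv5 (1.33), Lpcat1 (0.65), Sftpc (3.09) and Slc34a2 (1.17). Abca3 was highest in transgenic replicate 1 (0.51), and Lamp3 had no unflagged value in wild-type replicate 3. Without it Abca3, Etv5 and Lpcat1 turn higher in transgenic lungs, and the median difference is smaller in size. The mean of the 4 markers ran from -0.0019 to 1.04 in wild-type and from -0.053 to 0.25 in transgenic lungs, and all 9 were well above background on every array. Atrial muscle and adipocyte markers also had lower means, and 0 of them passed the adjusted threshold. Atrial muscle markers were lower in 4 of 4 (median -0.57, 2 past an unadjusted limma p of 0.05) and adipocyte markers in 5 of 5 (median -0.48, 1 past it, Adipoq at -0.89). Transgenic replicate 4 had the lowest mean of the adipocyte markers, -0.53 against 0.23 to 1.02 in the other lungs. Without it all 5 stay lower, with a median smaller in size. The atrial muscle median is also smaller in size without transgenic replicate 1. With normexp fitted on all spots the type II, atrial muscle and adipocyte medians were -0.43, -0.38 and -0.24, and in the sample channel alone -0.30, -0.50 and -0.59. Of 7 endothelial markers 5 were higher, with a median of 0.26 (0.16 in the sample channel alone). The 2 past an unadjusted limma p of 0.05 lay in opposite directions, Kdr at 0.63 and Tek at -0.44. Wild-type replicate 3 was the lowest lung for the 5 higher ones, with Emcn at -0.79, Cldn5 at -0.40 and Cdh5 at -0.32. Without it these 5 stay higher, but the median is much smaller. The part of any of these shifts in the Atp1b1, Scnn1a and Scnn1g differences was not tested. Against the 4 type II markers r was 0.77 for Scnn1a (exact permutation p 0.0454, adjusted 0.389) and 0.75 for Scnn1g (exact permutation p 0.0810, adjusted 0.459), and without the 2 farthest lungs, wild-type replicate 3 among them, it was 0.13 and -0.82. Spearman's rho was 0.36 (exact permutation p 0.389, adjusted 0.938) and 0.32 (exact permutation p 0.498, adjusted 0.938). These 2 relations rest on the farthest lungs.

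Aqp1 ran with the endothelial markers and against the type II markers in the 6 lungs that had a value, though neither relation passed after adjustment. Pearson's r was 0.85 for the endothelial markers (exact permutation p 0.0250, adjusted 0.339) and -0.84 for the type II markers (exact permutation p 0.0389, adjusted 0.389), and Spearman's rho was 0.77 (exact permutation p 0.103, adjusted 0.842) and -0.66 (exact permutation p 0.175, adjusted 0.842). Without the 2 farthest lungs r was 0.32 and -0.30, and in the sample channel alone 0.46 and -0.41.

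Between the genes themselves no pair passed an exact permutation p of 0.05. Of 19 pairs among 7 genes 12 had a positive and 7 a negative Pearson r, and the median was 0.11. The highest r was that of Scnn1a and Scnn1g at 0.74 (exact permutation p 0.0762, adjusted 0.872), with a rho of 0.71 (exact permutation p 0.0881, adjusted 0.997). It was 0.39 without the 2 lungs farthest from the median of Scnn1a, and 0.89 and 0.99 within the scan days (4 and 3 lungs).

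For each gene the 3 others with the highest Pearson r over the lungs were taken from 14911 genes (14912 for Aqp1, Scnn1g and Atp1b1), as a description without a test. Among so many genes and at most 8 lungs, high values arise in any case. Aqp1 had Wfdc15a, Fgf20 and Grik3 (0.98 to 0.99, 6 lungs), Aqp3 had Lce3c, Gadd45a and Det1 (0.90, 8 lungs), and Scnn1a had Nodal, Myog and Ccdc107 (0.94 to 0.96, 8 lungs). Scnn1g had Ube2w, Abca5 and Anks1b (0.98 to 0.99, 7 lungs), Cftr had Mpzl3, Bcas1 and Lce1l (0.98 to 0.99, 8 lungs), and Atp1b1 had Rnaset2b, 2310042D19Rik and Fdft1 (0.97 to 0.98, 7 lungs). Scnn1b had Ptk7 (0.99), Rhbg (0.98) and Cog7 (0.97) over 8 lungs. Cog7 encodes a Golgi trafficking protein and is the protein-coding gene next to Scnn1b on the side away from Scnn1g. Its values were -0.069, -0.013, 0.39 and 0.19 in wild-type replicates 1 to 4 and 0.37, 0.092, 0.056 and 0.17 in transgenic replicates 1 to 4.

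Related genes were taken from 6 lists of other pump subunits, other aquaporins, regulators of the sodium channel, anion transporters, potassium and proton transporters, and tight junction proteins. Of the 75 on the array 68 were tested. Transgenic lungs had the higher mean for 31 and the lower mean for 37, the median difference was -0.024, and 2 passed an unadjusted p of 0.05, both lower, where 2.09% of all probes did. By limma 0 passed the adjusted threshold.

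The mean of 13 of 16 sodium channel regulators was lower and that of 3 higher, and their median of -0.092 stayed below 0 under 6 other scalings, and 1 passed an unadjusted p of 0.05. This was Plunc, the older symbol of Bpifa1, a secreted airway protein that limits sodium channel activity. It gave 0.81, -0.019, 1.52 and 0.21 in wild-type replicates 1 to 4 and -1.26, -0.52, 0.56 and -2.39 in transgenic replicates 1 to 4. Transgenic replicate 3 lay within the wild-type range and the other 3 transgenic lungs below it. The difference was -1.53 (SE 0.53, 95% interval -2.69 to -0.38), with an unadjusted limma p of 0.0137 and an exact permutation p of 0.0857. Nedd4l, the ubiquitin ligase that removes the channel from the membrane, differed by -0.33 with an unadjusted limma p of 0.119. Its lowest value was -1.01 in transgenic replicate 1, against -0.22 to -0.059 in the other transgenic lungs. The difference rests largely on that lung.

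Other subunits of the sodium pump had means in both directions, 7 of 12 higher and 5 lower. With processed signals 10 were higher and 2 lower, and in the deposited matrix 9 and 3. In the main fit their median was 0.042, which became -0.0071 under median-centring, and 0 of them passed an unadjusted limma p of 0.05. The largest difference was that of Atp1b3, another beta subunit, at 0.25 with an unadjusted limma p of 0.264. It had values in 2 wild-type lungs (-1.03 and -0.71) and 3 transgenic lungs (-0.99, -0.48 and -0.40), so that single lungs move it widely.

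Of 9 potassium and proton transporters 5 were higher and 4 lower, and their median was 0.011. The median was -0.024 in the sample channel alone. With normexp fitted on all spots and under median-centring 2 were higher and 7 lower, and the medians were -0.041 and -0.054. Kcnk1, a background potassium channel, passed an unadjusted p of 0.05. It gave -0.57, -0.30, -0.17 and -0.55 in wild-type replicates 1 to 4 and -1.36, -0.63, -0.52 and -1.06 in transgenic replicates 1 to 4. Transgenic replicates 1 and 4 were lowest and transgenic replicate 3 lay above wild-type replicates 1 and 4. The difference was -0.50 (SE 0.18), with an unadjusted limma p of 0.0185 and an exact permutation p of 0.0857.

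In the remaining 3 lists 0 genes passed an unadjusted p of 0.05. Other aquaporins numbered 3 higher and 4 lower, and the largest difference was that of Aqp9, a channel for water and small solutes, at -0.27 (unadjusted limma p 0.277). It rests on wild-type replicate 3, at 1.14 against 0.022 to 0.34 in the other wild-type lungs and a transgenic mean of 0.12. Anion transporters numbered 9 higher and 6 lower, with a median of 0.017 that turned below 0 in 5 of 6 other scalings. The largest difference there was that of Clca3, a secreted goblet cell protein, which gave -1.01, -0.20, -1.84 and -1.91 in wild-type replicates 1 to 4 and 1.60, -1.86, 1.54 and -2.46 in transgenic replicates 1 to 4. Its 2 highest values and its lowest value were all transgenic, and the difference was 0.94 (SE 0.85) with an unadjusted p of 0.289. Tight junction proteins numbered 4 higher and 5 lower, with Tjp1, a junctional scaffold, at -0.24 (unadjusted p 0.154).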

How the data were processed

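RNA of each lung and a common pool were measured on 2-color arrays. For each array the authors deposited Feature Extraction output (10.10.1.1 in the file header, 11.0.1.1 in the submitters' processing notes) with raw and processed spot intensities per channel, and a matrix of log2 ratios of processed intensities, deposited for the 8 samples. Labels and methods name different extraction kits, miRNeasy and RNeasy.

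Here median signals were background-corrected per array and channel by normexp on unflagged spots (offset 50) and normalized by loess within arrays (span 0.3), flagged spots were left out, and spots of a probe were averaged, with limma 3.58.1 (R 4.3.3). A flag marks a spot that is uneven, has an uneven background or departs from the other spots of its probe. A probe was tested if well above background in Cy5 on at least 4 of 8 arrays with at least 2 values per genotype. The test was limma's moderated test, two-sided, with Benjamini-Hochberg adjustment over 32643 probes. For single genes and correlations an exact permutation test over lungs was run as well. The fit was tested on simulated data. The number of arrays limits the precision.

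Genes with several probes were led by the brightest. All probes of the 9 genes were named, related genes past an unadjusted p of 0.05 or with the largest difference of their list, and the 3 genes most like each member. Nedd4l and the marker genes given with values were picked after their values were seen. Members, lists and tests were chosen with earlier results of these data known. Symbols came from the matrix or, for 933 probes, from the accession (RefSeq, GRCm38.p6). Since the array files name another build (mm9), no coordinates are given. Alternatives changed the background correction, normalization, channel, filter, flags, blocks, test, weights and probes, or left out 1 mouse. The figures were drawn with matplotlib.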

Additional observations from a re-analysis of the deposited data

How the results depend on the processing

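No probe passed an adjusted p of 0.05 under any of the 23 alternatives to the limma fit, and no fluid transport gene did. The count of 683 probes with an unadjusted p under 0.05 became 389 with normexp fitted on all spots, 1196 with the slide as a block, 298 in the sample channel alone and 1150 with array weights, and ranged from 485 to 1173 when single mice were left out, the highest counts being 1173 (wild-type replicate 4 left out), 1073 (transgenic replicate 1) and 1035 (transgenic replicate 4). The 75 probes past 1.5-fold as well became 33 with normexp on all spots, 221 without an offset, 371 with processed signals, 359 in the deposited matrix, 121 with the slide as a block, 27 by the methods' t-test and 49 with array weights, and 49 to 167 when single mice were left out (49 without wild-type replicate 3, 167 without wild-type replicate 4, 116 without transgenic replicate 3, 153 without transgenic replicate 4). Of probes with an unadjusted p under 0.05, 53.4% were higher in transgenic lungs, against 34.4% with normexp on all spots, 19.9% under median-centring and 31.2% in the sample channel alone.

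The differences of Aqp1, Scnn1a, Scnn1g, Cftr and Atp1b1 kept their sign under every alternative, while leaving out single mice moved them from 0.11 to 0.37 (Aqp1), from -0.28 to -0.092 (Scnn1a), from -0.41 to -0.11 (Scnn1g), from -0.26 to -0.043 (Cftr, -0.021 in the sample channel alone) and from -0.72 to -0.17 (Atp1b1). That of Aqp3 turned to 0.041 in the sample channel alone. The leading Aqp4 probe turned to -0.029 under median-centring, to -0.10 with array weights and to -0.16 without transgenic replicate 1 (range without single mice -0.16 to 0.21). The second turned to 0.022 with normexp on all spots and to 0.023 without transgenic replicate 3, and the third to 0.0059 without wild-type replicate 3 and to 0.045 without transgenic replicate 2 (ranges -0.30 to 0.023 and -0.22 to 0.045). Scnn1b turned to -0.018 under median-centring, to -0.026 in the sample channel alone, and to -0.013 and -0.011 without wild-type or transgenic replicate 1 (range -0.013 to 0.15). Aqp5, with flagged spots kept, turned to -0.029 without wild-type replicate 1 (range -0.029 to 0.23). The cause was not tested.

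The labels number the mice 1 to 4 in both genotypes. Correlations of same-numbered arrays' deviations from the genotype means were 0.32, 0.25, -0.079 and -0.21, and not every array correlated best with its own number. Arrays of numbers 1 and 2 also shared a slide, and those of numbers 3 and 4 did not. These values therefore cannot tell whether the numbers pair the mice. Arrays of the same slide gave 0.32, 0.25, 0.30 and 0.068, and the unblocked fit and the permutation tests of single genes take no account of the slide. With the replicate block 858 probes had an unadjusted p under 0.05, 0 passed the adjusted threshold, and Atp1b1 gave -0.37 (unadjusted p 0.0344) and Scnn1g -0.32 (unadjusted p 0.0604). Flags left Aqp5 without a test and the leading Aqp4 probe with 5 values.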
